A study of Mus musculus with 66 samples.

Results

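The maturation of the cerebellum between the third and the sixth postnatal week was examined in 9 C57BL/6 mice, of the 66 mice in the series, all with unrestricted access to regular feed. The older group held 5 mice of 33-44 days: 2 females of 33 and 40 days (F33 and F40) and 3 males of 40, 43 and 44 days (M40, M43 and M44). The younger group held 4 mice of 17-21 days: 3 females of 17, 19 and 21 days (F17, F19 and F21) and 1 male of 17 days (M17). Another young mouse, a male of 19 days on the array numbered 29, was left out because its signal was low in the first runs of each block of probe numbers. Total RNA of each cerebellum was copied into radiolabelled cDNA and hybridized to its own nylon membrane carrying 8448 cDNA probes, and each array was 1 mouse. Values are Z scores, that is, the signal of a probe relative to the mean of its array, in units of the array's SD. They cannot be turned into folds, and their precision is limited by the number of arrays. Probes whose Z score averaged above 0 over both ages were kept. There were 4140 such probes, of which 2202 carried a single gene symbol and stood for 2022 genes. The mice were chosen by stated age, apart from the array left out for its signal, and the probes by their level, while the gene lists were drawn up with earlier results of these data known.

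In the first weeks of life the mouse cerebellum is still being built. Granule neuron precursors in the external granule layer, which divide under Sonic hedgehog released by Purkinje neurons, leave the cell cycle and migrate inward along Bergmann glia. Purkinje dendrites then extend and receive parallel fiber synapses, climbing fiber inputs are pruned, interneurons settle in the molecular layer, and oligodendrocytes wrap the axons in myelin. By the sixth week the external granule layer has gone and the circuit resembles that of the adult. Genes of cell division, of migration, of synapses and of myelin are therefore the ones usually followed over the postnatal weeks. In whole tissue a lower level of a transcript per cell and a smaller share of the cells that carry it cannot be told apart.

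Array profiles correlated closely within and between the ages. Because the probes differed widely in level, such correlations can be high even where many probes change with age. Over all 8448 probes the correlation between 2 arrays ranged from 0.915 to 0.970 among the mice of 33-44 days and from 0.963 to 0.976 among those of 17-21 days, and pairs of different age lay between 0.930 and 0.984. The highest values were those of mice of different age in the same run of array numbers: 0.984 for M43 and F17, and 0.980 for M44 and F19. The array numbers fell into 5 such runs, called array sets here, and 3 of them held a mouse of each age. The pair of the other such set, F40 and M17, correlated by 0.958, below the median of 0.965 over the 20 pairs of different age. The 2 males of 40 and 44 days were least alike (0.915). Gene names stand for the probes as annotated, and probes of the same gene often differed in level. Across 556 genes with several probes, the mean Z scores of a gene's first 2 probes correlated by 0.115. Over the 156 genes with 2 or more kept probes, the differences between the ages correlated by 0.294. Both are descriptions across genes that share arrays. Whether the annotation was right was not tested. Cyclin D2 (Ccnd2) had probes averaging from 2.49 to -1.06, and calbindin (Calb1) from 0.458 to -0.638. The astrocyte genes Clu and Cst3, abundant in brain, averaged -1.11 and -1.03 in the mice of 33-44 days, against -1.22 and -1.10 in those of 17-21 days, and the complement genes C1qa and C1qb, which microglia express together, stood at -1.64 and 0.602 in the older mice and at -1.67 and 0.570 in the younger mice. Many defining cerebellar transcripts, among them Pcp2, Gabra6 and Mbp, were not analysed here.

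No probe passed the test between the 2 ages. With limma's moderated test and Benjamini-Hochberg adjustment over the 4140 kept probes, 0 probes (0.00%) had an adjusted p under 0.05, and the smallest adjusted p was 0.796. At an unadjusted p under 0.05 there were 86 probes, 23 of them (0.556%) higher and 63 (1.52%) lower in the mice of 33-44 days. An average of 207 would be met by chance if no probe differed between the ages. Probes that share arrays are not independent, so a count can lie far from that average. Differences were small among the kept probes. They ran from -0.353 for Birc6 to 0.316 for Hat1, and 93.3% of the kept probes differed by 0.2 Z units or less. Birc6, an inhibitor of apoptosis, is named here only for its place at the lower end. Probes that were not kept could differ by more, such as Hmgxb3 by 1.39, at -1.81 in the older and -3.20 in the younger mice. A probe's 95% interval, not adjusted for the number of probes, typically reached 0.213 Z units to either side of its difference. Shifts of that size were not resolved, nor were some larger ones. Birc6, at -0.353, had an adjusted p of 0.796 in limma. A p above the threshold does not show that the ages were equal. The count leaned on single mice. Without M44 there were 1025 probes at an unadjusted p under 0.05 (543 higher and 482 lower), a smallest adjusted p of 0.126 and 0 probes called. Leaving out 1 of the other mice gave 0 called probes in each of the 8 fits, with 21 (without F21), 22 (without M40), 35 (without F40), 54 (without M17) and 148 (without F17) at an unadjusted p under 0.05, and 73 to 92 without F19, F33 or M43.

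The differences moved with the level of the probes. Of the 136 kept probes with a mean Z score of 2 or above, 135 were higher in the mice of 33-44 days, with a median difference of 0.153. In the next group of 408 probes, from 1.5 to 2, the median was 0.0988 and 336 were higher, whereas the median was -0.029 among the 1549 probes under 0.5 and 612 of these were higher. The brightest probes had medians of 2.34, 2.21, 2.48, 2.30 and 2.11 in F33, F40, M40, M43 and M44, against 2.23, 1.95, 2.18 and 2.16 in F17, M17, F19 and F21. M40 and F33, which shared an array set without a young mouse, stood highest and M17 stood lowest, and the ages overlapped. After quantile normalization, which gives every array the same distribution, the median difference of the brightest probes was 0.0114 and 80 of the 136 were higher. A positive difference of a bright probe below is therefore to be read beside that group's 0.153. What spread the upper end of some arrays was not tested.

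**Figure D1:**
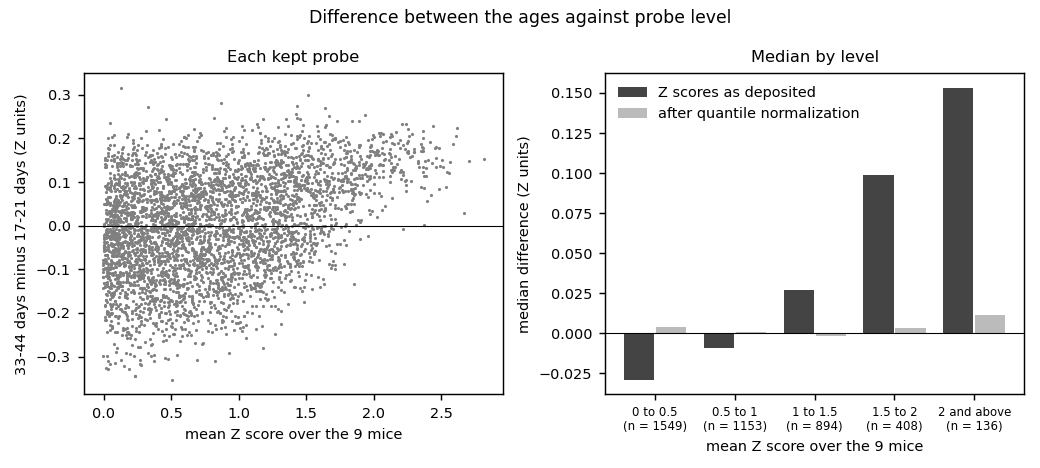
Left, each point is 1 of the 4140 kept probes, placed by its mean Z score over the 9 mice (x axis) and by the difference between 33-44 and 17-21 days (y axis, Z units). Right, bars give the median difference in 5 ranges of level, for the deposited Z scores (dark) and after quantile normalization (pale): the median of 0.153 at a level of 2 and above became 0.0114.

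Genes of the granule neuron precursors and of Hedgehog signalling showed no difference that passed. Of 13 probes measured, 7 from 5 genes were kept, 0 were called, and their median difference was 0.081 against 0.005 over all kept probes. Cyclin D2 (Ccnd2), which drives the divisions of these precursors, had the brightest probe of the list. Its Z scores were 2.58, 2.58, 2.71, 2.60 and 2.36 in F33, F40, M40, M43 and M44, against 2.56, 2.13, 2.44 and 2.42 in F17, M17, F19 and F21. The ages overlapped, the difference was 0.179 (95% interval -0.036 to 0.393), and after quantile normalization it was 0.0302. Its other kept probes differed by 0.147 and 0.072. Gas1, a co-receptor for Sonic hedgehog, averaged 0.502 ± 0.183 at 33-44 days and 0.320 ± 0.112 at 17-21 days (SD, n = 5 and 4; 95% interval of the difference -0.034 to 0.398). Gli2, the main activator among the Hedgehog transcription factors, averaged 0.314 ± 0.217 at 33-44 days and 0.433 ± 0.150 at 17-21 days, with M44 at 0.67 and its set partner F19 at 0.64 standing above the rest. The receptor component Smo and the chemokine gene Cxcl12, which the meninges release to hold the precursors at the surface, differed by 0.081 and -0.105. Ptch1, Gli3, Sufu and Hhip lay below the mean signal.

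Cell division and DNA replication were the best covered of the developmental lists, with 58 probes measured and 27 kept. Their median difference was 0.0165, 14 were positive and 13 negative, none of the 27 was called, and 1 stood at an unadjusted p under 0.05. That one was Hells, a chromatin remodelling helicase of dividing cells. Hells had Z scores of 0.26, -0.04, -0.15, 0.01 and 0.28 in F33, F40, M40, M43 and M44, against 0.31, 0.35, 0.18 and 0.42 in F17, M17, F19 and F21. F40, M40 and M43 lay below all 4 younger mice, F33 and M44 did not, and the difference of -0.243 (95% interval -0.460 to -0.0260) had an adjusted p of 0.796 in limma. Its probe lay in the block of probe numbers with the most negative median, described below. Mcm4, a subunit of the replicative helicase and the brightest of the list, averaged 2.21 ± 0.172 at 33-44 days and 2.01 ± 0.107 at 17-21 days. The difference of 0.204 became 0.0607 after quantile normalization. Espl1, the separase that releases sister chromatids, differed by 0.058 on one probe and -0.0185 on a second. Rfc2, a subunit of the clamp loader, differed by 0.0865, and the proliferation genes Cdk4, Mcm2 and Mcm6 by 0.026, -0.015 and 0.0265. The 31 probes that were not kept ran from -0.256 for Ccna2 to 0.175 for Orc1. Over all 58 measured probes the median was 0.01375.

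Genes of immature and migrating neurons gave 11 kept probes of 32, with a median difference of 0.048 and 0 called. The median was -0.0353 after quantile normalization and -0.0141 after the correction by run of probe numbers described below, so it had no settled direction. Slit2, a repellent guidance cue, averaged 2.52 ± 0.141 at 33-44 days and 2.39 ± 0.135 at 17-21 days. Its difference of 0.134 (95% interval -0.0725 to 0.341) became -0.0221 after quantile normalization. Marcks, an actin-binding substrate of protein kinase C, averaged 1.64 ± 0.239 at 33-44 days and 1.58 ± 0.158 at 17-21 days on its brightest probe. That difference of 0.0535 became -0.0353 after quantile normalization, and the second kept Marcks probe differed by -0.116. N-cadherin (Cdh2), an adhesion molecule of migrating granule neurons, differed by 0.126 on one probe and 0.082 on a second, and the second became -0.0395 after quantile normalization. The reelin receptor gene Vldlr was the lowest of the list on both of its probes, at -0.251 (95% interval -0.620 to 0.118) and -0.204 (95% interval -0.478 to 0.0702). On the first of these M40 stood at -0.45, while the other older mice ranged from 0.24 to 0.72 and the younger mice from 0.47 to 0.82. Sox11, a transcription factor of newborn neurons, differed by 0.048 on its kept probe and by -0.169 on a probe below the mean signal.

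Neuronal cell types were thinly represented. For mature granule neurons 2 of 6 probes were kept. The potassium channel gene Kcnd2 averaged 0.482 ± 0.0701 at 33-44 days and 0.520 ± 0.0868 at 17-21 days. Nfia, a transcription factor of granule neuron maturation, averaged 0.070 ± 0.0480 at 33-44 days and 0.185 ± 0.102 at 17-21 days. The same Nfia probe also counted in the list of immature and migrating neurons. For Purkinje neurons 5 of 11 probes were kept, with a median difference of -0.037. Car8, which binds the inositol trisphosphate receptor in these cells, had Z scores of 0.83, 1.01, 1.04, 0.62 and 0.70 in F33, F40, M40, M43 and M44, against 0.63, 0.97, 0.69 and 0.67 in F17, M17, F19 and F21. The 2 ages covered the same range, and the difference was 0.100 (95% interval -0.125 to 0.325). The 3 kept probes of the calcium buffer gene Calb1 differed by -0.031, -0.250 and -0.214, with intervals that all spanned 0. The light neurofilament gene Nefl differed by -0.037. Of the interneuron list Kit, a receptor kinase of molecular layer interneurons, and Sorcs3 were kept, and they differed by 0.0205 and 0.166.

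No probe of the synaptic lists was called. The 10 kept probes of synaptic vesicles and release had a median of -0.0603, 9 of them negative. Of all 4140 kept probes 2004 were negative, and over all 28 measured vesicle probes the median was -0.03775. The 6 kept probes of the postsynaptic density and glutamate receptors had a median of -0.0775. The postsynaptic median was -0.0217 after subtracting the median of each block of probe numbers. Over all 11 measured probes, those below the mean signal included, it was 0.0075. Sv2a, a vesicle glycoprotein, averaged 1.09 ± 0.0665 at 33-44 days and 1.18 ± 0.136 at 17-21 days. Syt11, a synaptotagmin, differed by -0.0575 and Scamp5, a vesicle membrane protein, by 0.107. The vesicular glutamate transporter gene Slc17a6 had the lowest value, -0.191 (95% interval -0.477 to 0.0953). Among the postsynaptic genes spinophilin (Ppp1r9b), which anchors protein phosphatase 1 in spines, averaged 1.86 ± 0.183 at 33-44 days and 1.71 ± 0.162 at 17-21 days, and the scaffold genes Homer2 and Baiap2 differed by 0.138 and -0.206. The 3 probes of the GABA and glycine receptor list lay below the mean signal. Of 18 probes for voltage-gated channels and pumps 8 were kept, with a median of -0.0533, which was 0.01 over all 18.

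**Figure D2:**
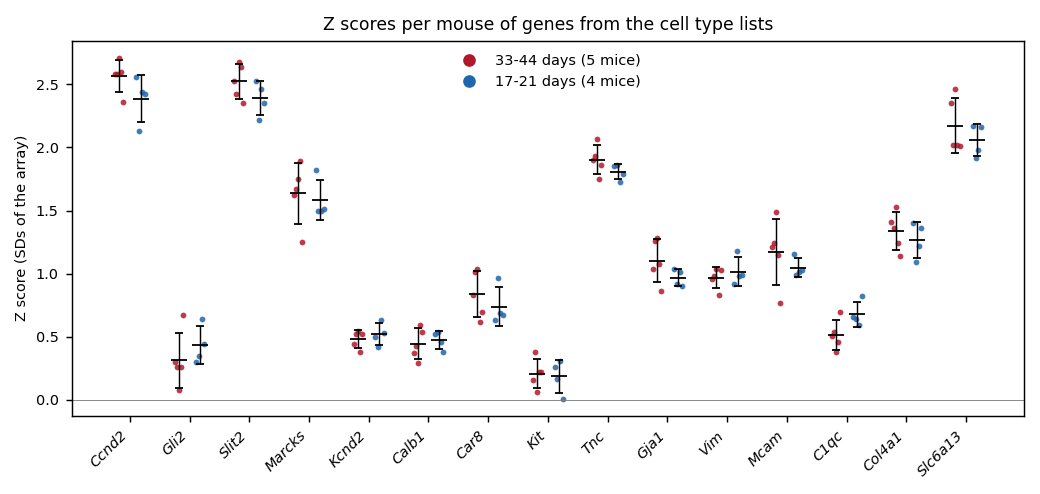
Z scores (y axis, SDs of the array) of 15 genes from the cell type lists, 1 kept probe each. Red points are the 5 mice of 33-44 days and blue points the 4 of 17-21 days, and black marks give the mean ± SD. The ages overlap for every gene shown, as for Car8, where the older mice lie from 0.62 to 1.04 and the younger from 0.63 to 0.97.

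No glial probe was called. The 7 kept probes of Bergmann glia and astrocytes had a median difference of -0.0085, 3 positive and 4 negative, and a median of 0.074 without M17. Tenascin C (Tnc), a matrix protein of Bergmann glia, averaged 1.90 ± 0.116 at 33-44 days and 1.81 ± 0.0602 at 17-21 days, and its difference of 0.0945 became -0.022 after quantile normalization. Connexin 43 (Gja1), which couples astrocytes, averaged 1.10 ± 0.173 at 33-44 days and 0.968 ± 0.0680 at 17-21 days. Vim, the intermediate filament of radial and Bergmann glia, averaged 0.968 ± 0.0841 at 33-44 days and 1.02 ± 0.113 at 17-21 days. The glutamate transporter gene Slc1a3 differed by 0.0395. For myelin and oligodendrocytes 7 probes were measured and 2 kept, Mcam and Bcas1. Of these, Mcam is not specific to oligodendrocytes. Mcam had Z scores of 1.21, 1.24, 1.49, 1.15 and 0.77 in F33, F40, M40, M43 and M44, against 1.16, 0.99, 1.01 and 1.03 in F17, M17, F19 and F21, a difference of 0.125 (95% interval -0.119 to 0.368). M44 was the lowest of all 9 mice and the other older mice overlapped F17 alone. Bcas1, a protein of myelinating oligodendrocytes, differed by -0.132. The other list members Pmp22, Gpr37, Car2, Cryab and Gsn lay below the mean signal, and so did all 3 probes of oligodendrocyte precursors. Among microglial genes Fcer1g, C1qb and C1qc differed by 0.148, 0.032 and -0.160, and all 3 intervals spanned 0. Cholesterol synthesis, which feeds myelin, had 3 kept probes with a median of -0.0455, and sphingolipid and fatty acid synthesis had 6 with a median of 0.014.

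No marker of the other tissue that a dissected cerebellum can carry was called. Meningeal genes had 10 kept probes of 18 and a median of 0.0943, or -0.00667 with array set as a block. They included Slc6a13, a GABA transporter of the meninges, at 2.17 ± 0.216 at 33-44 days and 2.06 ± 0.127 at 17-21 days, a difference of 0.115 that became -0.0288 after quantile normalization. The per-mouse median over these 10 probes ran from 0.560 to 0.785 in the older mice and from 0.605 to 0.810 in the younger. Hemoglobin and other red blood cell genes had 9 kept probes of 19 and a median of -0.0575, or 0.0313 without M17, and their per-mouse median ran from 0.25 to 0.43 at 33-44 days and from 0.2 to 0.54 at 17-21 days. Vessel genes, with 4 kept probes, had a median of 0.0435. The single kept probes for the choroid plexus (Cdkn1c) and for neighbouring brain tissue (Hoxb3, a gene of the hindbrain) differed by 0.043 and 0.0615.

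Lists of general cell functions likewise held 0 called probes. Oxidative phosphorylation had 25 kept probes and a median of 0.068 (0.006 without F21), with Uqcc2, an assembly factor of complex III, averaging 2.14 ± 0.176 at 33-44 days and 1.92 ± 0.154 at 17-21 days. Glycolysis and the citrate cycle had the highest median of the 30 lists with kept probes, 0.105 over 7 probes, which was 0.0300 with array set as a block in the fit and 0.02 over all 20 measured probes. The lowest median, -0.090, was that of the thyroid hormone and steroid receptor list, where all 5 kept probes were negative. These probes stood for Nr2f1, Nr2f2, Ncoa1 and Esr1, none of them a thyroid hormone receptor gene. The thyroid hormone receptor gene Thra lay below the mean signal and differed by -0.009. Over all 15 measured probes of this list the median was -0.066. One of its 2 probes for the orphan receptor gene Nr2f1 differed by -0.258 (95% interval -0.497 to -0.0185) and the other by -0.090. Cytosolic ribosomal proteins, with 46 kept probes, had a median of 0.0115, mitochondrial ribosomal proteins -0.0795 over 9, and the proteasome 0.070 over 9. The proteasome median was 0.16 without M44. Among 14 chaperone probes the constitutive Hsc70 gene Hspa8 had 2 probes, differing by 0.234 (95% interval 0.0149 to 0.452) and 0.204 (95% interval -0.0436 to 0.451), the first of which became 0.0906 after quantile normalization. The splicing list had 40 kept probes with a median of 0.0448, and its lowest was Hnrnpa1, at -0.308 (95% interval -0.614 to -0.00218). The extracellular matrix list, with a median of 0.079 over 17 probes, held several bright members, among them the sheddase gene Adam10 at 2.26 ± 0.141 in the older mice and 2.07 ± 0.194 in the younger. Its median was 0.0282 after quantile normalization. Over all 30 lists the 328 distinct kept probes included 0 called ones. The medians of 16 lists had the opposite sign in 1 or more of 24 alternatives, and 33 of the 328 probes changed sign after quantile normalization.

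**Figure D3:**
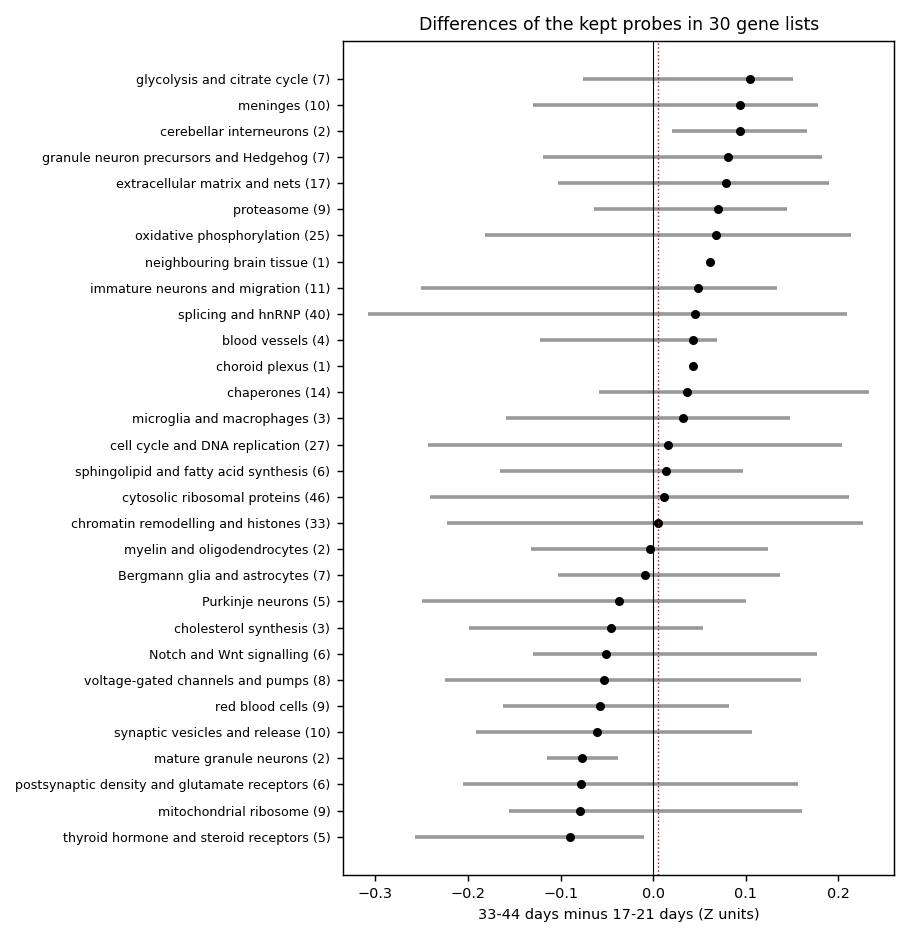
Each row is 1 gene list with its number of kept probes in brackets. The black point is the median difference between 33-44 and 17-21 days (x axis, Z units) and the grey bar runs from the lowest to the highest probe. The dotted line marks the median of all kept probes, 0.005, and list medians lie between -0.090 and 0.105.

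The single genes nearest to the threshold are given as not passing, each with an adjusted p of 0.796 in limma. Since they were picked for their small p, their values are a description. Their exact permutation p values over 126 arrangements of the mice, two-sided and unadjusted, lay between 0.0159 and 0.111, where 0.00794 is the smallest that 5 against 4 mice allow. Among the 8 with a positive difference, Ifitm2, an interferon-induced membrane protein gene, had Z scores of 1.6, 1.55, 1.86, 1.76 and 1.45 in F33, F40, M40, M43 and M44, against 1.48, 1.27, 1.09 and 1.54 in F17, M17, F19 and F21. Each older mouse exceeded its set partner, by 0.28 for M43 over F17, 0.36 for M44 over F19 and 0.28 for F40 over M17, although M44 lay below F17 and F21. The difference was 0.299 (SE 0.11), and 0.232 after quantile normalization. Lonp2, a protease of peroxisomes, was the only one of the 16 whose groups did not overlap: 0.86, 1.20, 1.05, 0.92 and 0.89 in F33, F40, M40, M43 and M44, against 0.83, 0.77, 0.81 and 0.66 in F17, M17, F19 and F21. Over all kept probes 7 (0.169%) had groups without overlap.

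Hat1, which acetylates newly made histone H4, had Z scores of 0.05, 0.71, 0.37, 0.12 and 0.08 in F33, F40, M40, M43 and M44, against 0.09, -0.10, 0.07 and -0.26 in F17, M17, F19 and F21. F40 and M40 stood apart, while F33, M43 and M44 lay close to F17 and F19. Within array sets the difference was 0.03, 0.01 and 0.81. Vcp, the ATPase that extracts ubiquitinated proteins, averaged 1.84 ± 0.165 at 33-44 days and 1.598 ± 0.136 at 17-21 days, and a second Vcp probe averaged 2.35 ± 0.213 at 33-44 days and 2.13 ± 0.123 at 17-21 days. Both are bright probes, and the within-set differences of the first were 0.09, -0.08 and 0.56. Vma21, an assembly factor of the vacuolar proton pump, and Coa3, an assembly factor of cytochrome c oxidase, differed by 0.252 and 0.282, Arel1, a ubiquitin ligase, by 0.270, and Bcl7c, a subunit of the BAF chromatin remodelling complex, by 0.233. In set 2 Vma21 differed by 0 and Coa3 by -0.15.

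Among the 8 with a negative difference, Tsc22d1, a transcriptional regulator induced by TGF-beta, had Z scores of 0.81, 0.87, 0.57, 0.70 and 1.05 in F33, F40, M40, M43 and M44, against 1.04, 1.14, 1.05 and 1.14 in F17, M17, F19 and F21. Only M44 reached the range of the younger mice. Far2, an enzyme that makes fatty alcohols, differed by -0.281, Tbc1d23, which captures vesicles at the Golgi, by -0.309, and Plet1, a cell surface protein gene, by -0.292. Sec24c, a coat component of vesicles leaving the endoplasmic reticulum, differed by -0.300 and Ranbp1, a regulator of nuclear transport, by -0.293. Dap, a death-associated protein gene, and Tbc1d14, a regulator of autophagy, differed by -0.317 and -0.322. M44 was the highest of the older mice for all 8 genes, and for 6 of the 8 it was level with its set partner F19 or higher, by up to 0.23 for Tbc1d14. Second probes of Far2, Tbc1d23 and Tsc22d1 differed by -0.0835, -0.076 and -0.0395, far less than the first.

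**Figure D4:**
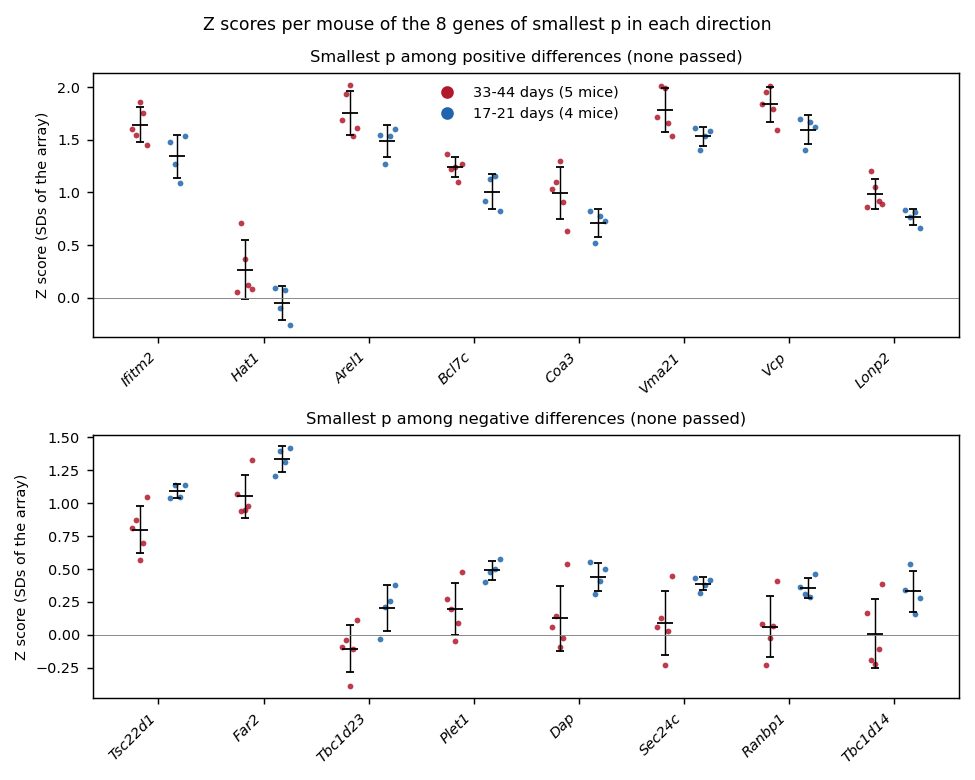
Z scores (y axis, SDs of the array) of 16 genes, the 8 of smallest p with a positive difference above and the 8 of smallest p with a negative one below. Red points are the 5 mice of 33-44 days and blue points the 4 of 17-21 days, and black marks give the mean ± SD. Lonp2 is the only gene without overlap, and the highest red point of each of the 8 genes in the lower panel is M44.

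Place on the membrane, taken here from the probe number alone, moved with these differences. Probe numbers fall into 16 blocks of 528, and the median difference of the kept probes ran from 0.0763 in block 1 to -0.0825 in block 14. Of the probes with an unadjusted p under 0.05, 22 higher and 9 lower ones lay in blocks 1 to 8, whereas 1 higher and 54 lower ones lay in blocks 9 to 16. Block 14 alone held 23 of the lower ones, among them Tsc22d1, Far2, Tbc1d23, Plet1, Sec24c, Ranbp1, Hells and the Nr2f1 probe given above. In that block the median deviation from the mean of the 9 mice was 0.023, -0.127, -0.062, -0.076 and 0.096 in F33, F40, M40, M43 and M44, against 0.011, 0.037, 0.019 and 0.122 in F17, M17, F19 and F21. When the median of each run of 22 probe numbers was subtracted on every array, Tsc22d1 differed by -0.155, Far2 by -0.116 and Ranbp1 by -0.128, and among the positive ones Vcp by 0.103 and Lonp2 by 0.0904. Ifitm2, in block 10 where the median difference was 0.0055, differed by 0.203. The part of the membrane position in these differences was not tested further.

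**Figure D5:**
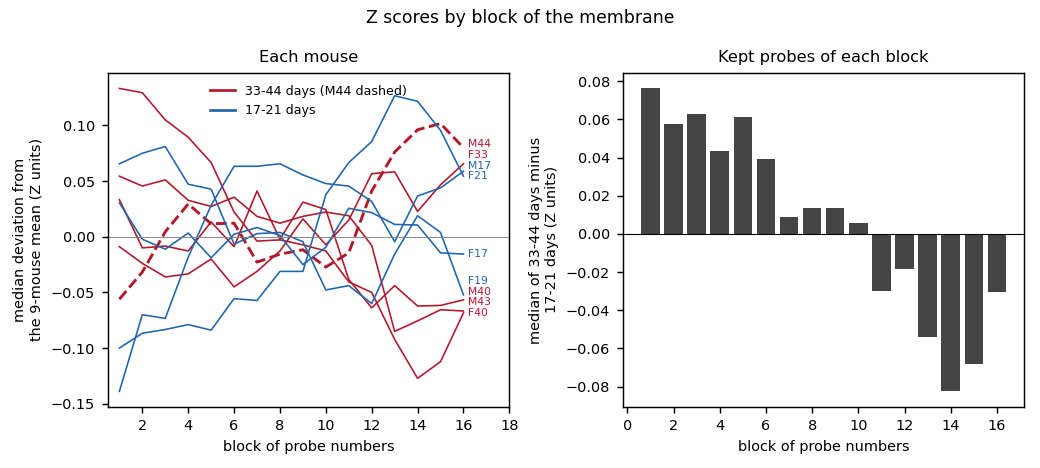
Left, the median deviation of each mouse from the mean of the 9 mice (y axis, Z units) in each of the 16 blocks of probe numbers (x axis), red for 33-44 days, blue for 17-21 days and dashed for M44. Right, bars give the median difference between the ages over the kept probes of each block, which runs from 0.0763 in block 1 to -0.0825 in block 14.

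The first criteria in the study's methods were applied to the same 9 mice: an absolute Z-ratio of 1.5 or more, an average Z score above 0 and a p under 0.05, taken here from limma without adjustment. The two-way analysis of variance that the methods then apply over age, sex and diet was not run here. The Z-ratio scales a probe's difference by the SD of the differences of all probes, 0.142 here. They selected 81 probes, 0.959% of the membrane, 21 of them higher and 60 lower in the mice of 33-44 days. Of these, 47 carried a single gene symbol, 12 higher and 35 lower. The share was 0.166% with array set as a block, 3.75% without M44, 0.237% without F21 and 0.260% without M40. Sex was unbalanced, with 3 males of 5 at 33-44 days and 1 of 4 at 17-21 days. With a term for sex, limma called 0 probes and gave 118 an unadjusted p under 0.05, and the difference was 0.288 for Ifitm2, 0.233 for Lonp2 and -0.287 for Tsc22d1.

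Mice of 6 months (10 mice, ad libitum, both sexes) gave a later point for these values. They were tested against the same 5 mice of 33-44 days, so the 2 comparisons share arrays and their values are only set side by side. Of 4104 kept probes limma called 0 (0.00%), and 22 reached an unadjusted p under 0.05, with a smallest adjusted p of 0.999. Without M44 that count was 154, without F40 it was 9, and 0 were called in both cases. Ifitm2 averaged 1.35 ± 0.206 at 17-21 days, 1.64 ± 0.165 at 33-44 days and 1.56 ± 0.122 at 6 months. Tsc22d1 averaged 1.09 ± 0.0550 at 17-21 days, 0.800 ± 0.181 at 33-44 days and 0.974 ± 0.182 at 6 months (SD, n = 4, 5 and 10). The 6-month mice ranged from 0.57 to 1.16 for this gene, which covered every juvenile mouse. The bright Ccnd2 probe averaged 2.39 ± 0.183 at 17-21 days, 2.57 ± 0.127 at 33-44 days and 2.49 ± 0.147 at 6 months. Hells averaged 0.315 ± 0.101 at 17-21 days, 0.072 ± 0.190 at 33-44 days and 0.13 ± 0.1798 at 6 months. Vim averaged 1.02 ± 0.113 at 17-21 days, 0.968 ± 0.0841 at 33-44 days and 1.02 ± 0.0964 at 6 months, and neighbouring ages lay within their spread.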

How the data were processed

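Cerebellar RNA of each mouse was measured on a nylon membrane of mouse cDNA clones. The deposited values were Z scores, a score computed by the authors for each array from spots quantified on phosphor images. Z scores were used as deposited. The sources used here do not say whether logarithms were taken first. Ages, sexes and diets came from the labels, and genes were named from GEO's platform annotation, in which 4875 probes had 1 symbol, 224 several and 3349 none. The members and gene lists were chosen with earlier results of these data known.

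The difference, 33-44 minus 17-21 days, was fitted with limma 3.58.1 in R 4.3.3 (lmFit and eBayes, two-sided, Benjamini-Hochberg over all kept probes), a method that departs from the study in adjusting p. The script was tested on simulated data. Named genes were the called ones or, where fewer than 6 passed in a direction, the 8 of smallest p, named as not having passed, plus the 3 brightest kept probes of each list. Other list members in the text were picked for their role after their values were seen. The exceptions, picked for their value, were Hells, Ccna2, Orc1, Hspa8, Hnrnpa1, Nr2f1, Vldlr, Slc17a6 and Calb1. Names drawn by prefix that belonged to other families were removed. No sequence is shown, since no probe was called. Alternatives comprised array 29, sex, array set, filters, quantile normalization, membrane position, array weights and leaving out each mouse. Nothing says whether mice were littermates.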

Additional observations from a re-analysis of the deposited data

Results flagged for a closer look

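Single mice that stood apart from the rest of their age were searched for among 98 probes named or listed, 196 groups in all, and 11 were found, where chance flags about 1 group in 20, or 10. Of these, 4 were values of M44. The microglial gene Fcer1g was at 0.49 in M44 and at 1.27 to 1.48 in the other older mice. Ndufa12, a subunit of complex I, was at 1.22 in M44 against 1.75 to 1.91, and the 2 probes of the ribosomal protein gene Rpl31 were at 1.16 and 1.13 against 1.68 to 1.89 and 1.67 to 1.85. M17 gave another 4: the complement gene C1qb at 0.83, against 0.48 to 0.49 in the other younger mice, the proteasome gene Psmd10 at 0.88 (1.23 to 1.28), the splicing factor gene Prpf31 at 1.65 (1.95 to 2.01) and syndecan 4 (Sdc4) at 1.37 (1.82 to 1.86). F17 was highest for Marcks, at 1.82 against 1.5 to 1.51, and for the chaperonin gene Cct6a, at 1.54 against 1.23 to 1.28. F40 was highest for 1 probe of Calb1, at 0.48 against -0.10 to 0.05 in the other older mice.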

How the results depend on the processing

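In every setting run 0 probes were called between 33-44 and 17-21 days and between 6 months and 33-44 days. The count at an unadjusted p under 0.05, 86 as reported, was 213 with array 29 included, 146 in a fit of the 38 ad libitum arrays, 137 in that fit with sex and 43 with array set as a block, 266 without the filter on low probes, 482 with array weights, 14 with array set as a block in the 9 arrays and 446 without the males of 40 and 44 days. The last 2 settings were chosen after seeing the data. Leaving out 1 mouse gave 21 to 1025. The share by the study's first criteria, 0.959%, was 1.92% with array 29, 0.426% after the correction by run of probe numbers and 0.166% with array set as a block, and 0.237 to 3.75% without 1 mouse. Toward 6 months the count of 22 was 57 after the position correction, 13 after the run correction and 14 after the block correction, and 9 to 154 without 1 mouse. The cause of these moves was not tested. After quantile normalization 33 of the 328 list probes, none of them called, changed sign, among them Slit2 (-0.0221) and Tnc (-0.022). The 16 genes nearest to the threshold kept their direction and stayed without a call in all 384 values. Those genes were picked for small p in arrays that the alternatives reuse, so the kept direction is no independent support. Among the list medians 712 of 720 alternatives stayed within the spread between mice, though 16 of the 30 lists had a median of the opposite sign in at least 1 alternative. No paired analysis was possible by replicate number because those numbers, given in accession order, pair no mice. In the 9 arrays, the fit with array set as a block compares mice within the 3 sets that held both ages. That does not hold for the fit of the 38 ad libitum arrays, in which every set also held adult mice.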
